A study of Homo sapiens with 6 samples.

Results

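The genes described here are the ATP-driven chromatin remodellers of the SNF2 family other than HELLS, with a small number of the subunits that work most closely with them. They were chosen by name, by a rule that uses no measured value but was written with earlier results of these data known. The list holds 36 genes of the 60483 rows of the count table, of which 27 encode SNF2-family ATPases and 9 encode partner subunits (DAXX, BAZ1A, BAZ1B, BAZ2A, BPTF, SMARCB1, SMARCC1, SMARCC2 and ARID1A). All 36 passed the filter on low counts, as did 17925 genes in all.

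RNA-seq libraries were compared between HAP1 cells, an established near-haploid human line that the labels give as C631 and as chronic myelogenous leukemia, and a HELLS KO clone of that line, with 3 libraries of each genotype. Both genotypes were kept in normal growth without a drug. HELLS KO is 1 purchased clone with an insertion of 1 base pair in exon 3 of HELLS, so the effect of the mutation and any other difference between this clone and the parental cells cannot be told apart. The study's methods call the RNA samples biological replicates, while the labels do not say whether they came from separate cultures, so p-values measure the spread between these libraries. Replicate 3 of both genotypes carries a batch label that replicates 1 and 2 do not.

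SNF2-family enzymes use the energy of ATP to slide, evict or exchange nucleosomes, and most of them act inside larger complexes that direct them to promoters, to heterochromatin or to stalled replication forks. HELLS is a member of the family that works with CDCA7 and is known for opening heterochromatin to the DNA methylation machinery. Because several of its relatives also act in heterochromatin or in DNA repair, the comparison asks whether any of them stood at a higher or lower transcript level where HELLS was knocked out. In bulk RNA a lower value can come from fewer cells that carry a transcript or from less of it per cell, and these cannot be told apart.

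HELLS itself lies at chr10:94545329-94613905 (GRCh38, + strand). Its counts were 1444, 1488 and 3671 in HAP1 and 1410, 1375 and 2802 in HELLS KO, which corresponds to 121 ± 28.0 and 103 ± 10.7 CPM (counts scaled to library size; SD, n = 3). The ranges overlapped, and the log2 fold change was -0.24 (SE 0.18, 95% interval -0.66 to 0.19; edgeR quasi-likelihood adjusted p = 1.0). A count over the whole gene does not read an inserted base, so it does not check the label. At the protein level, the study reports by western blot that HELLS was lost in the HAP1 knockout.

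The libraries held 13641237 to 24400187 counts, with the highest totals in the 2 libraries of replicate 3. Of 10 blood and myeloid markers, 5 (PTPRC, SPI1, ITGAM, MPO and HBG1) had at most 3 counts in every library of either genotype, so these 5 were absent or nearly so. Others of the list were present, as KIT had 319, 270 and 933 counts in HAP1 and RUNX1 had 346, 285 and 817. The summed level of that list was 5.17 to 9.15 FPKM (fragments per kilobase of gene length and depth of sequencing, as the authors computed it) in HAP1 and 2.27 to 3.73 in HELLS KO, and KIT fell (log2 fold change -2.90, edgeR adjusted p = 0.015). RUNX1 (log2 fold change 0.27) and CD33 (0.12), the other markers of that list that were tested, were not called. CD34 and GATA1 had too few counts to be tested. The 4 epithelial markers summed to 25.6 to 36.4 FPKM in HAP1 and 13.5 to 18.5 in HELLS KO. EPCAM (log2 fold change -4.88) and KRT8 (-2.61) fell, each at an edgeR adjusted p of 0.0015. KRT18 (-0.19) was not called, and CDH1 was not tested. The part of these marker changes in the results was not tested. The 5 mesenchymal markers summed to 26.9 to 30.2 FPKM in HAP1 and 24.9 to 29.2 in HELLS KO, and 0 of them were called. The 8 proliferation markers summed to 364 to 440 and 361 to 445 FPKM, and 0 of them were called.

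No remodeller of the list was called in either direction. Calling a gene took an edgeR adjusted p under 0.05 together with a change of 2-fold or more, and under this rule 0 of 36 members were higher in HELLS KO, against 1.5% of all tested genes, and 0 were lower, against 0.72% (either direction 2.22%). Without the fold cut-off 0 members passed, against 2.26% of all tested genes, and 0 reached an unadjusted p under 0.05, against 6.59%. DESeq2 also called 0 members (3.24% of all tested genes) and gave 0 an unadjusted p under 0.05 (7.14%). The limma fits on the log2 FPKM values gave 0 by either measure, but their share over all genes was not counted. The smallest unadjusted p among the members was 0.21, for CHD5, and every member had an edgeR adjusted p of 1.0.

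The fold changes were small as well as uncalled. They ran from -0.13 for HLTF to 0.54 for CHD5 on the log2 scale, with a median of 0.03 beside 0.01 for all tested genes. Of the 36 members, 34 lay within 0.2 of 0 and 29 within 0.1. In 33 members the difference between the genotype means was smaller than the spread within a genotype, the exceptions being SMARCA1, BAZ1A and CHD5. The shares of all tested genes within these bounds were not counted, so these counts describe the members alone. For 0 of 36 members did the 3 HELLS KO libraries all lie on 1 side of the 3 HAP1 libraries, which was the case for 10.1% of all tested genes.

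How large a change these libraries could have missed differed between members. The 95% interval of the log2 fold change stayed within -1 to 1 for 33 members (67.7% of all tested genes), and the other 3 were ERCC6L2, SHPRH and CHD5. For 26 members it stayed within a 1.5-fold change in either direction, and for 20 members within 0.5 on the log2 scale. For these narrower bounds the share of all tested genes was not counted. The median SE was 0.17 for the members and 0.23 for all tested genes.

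**Figure D1:**
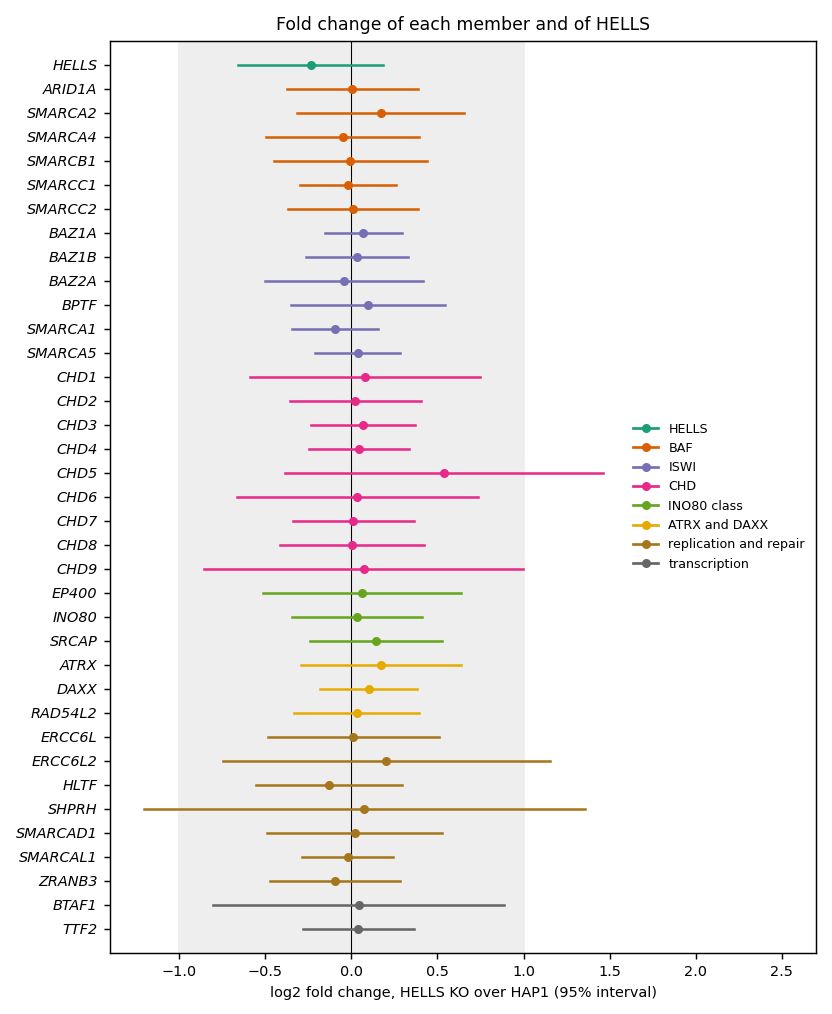
The log2 fold change (HELLS KO over HAP1, horizontal axis) of HELLS and of each of the 36 members, coloured by role, with its 95% interval from the edgeR fit over 3 libraries of each genotype; the grey band marks -1 to 1. Every interval of a member holds 0, and those of ERCC6L2, SHPRH and CHD5 leave the band.

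A total of 28 members had a log2 fold change above 0 (52.0% of all tested genes) and 8 had one below, but this count turned with the libraries used. Without HELLS KO replicate 3 only 13 members were above 0 and the median was -0.07, and without HAP1 replicate 2 there were 14 with a median of -0.03. Without HELLS KO replicate 1 there were 31 and the median was 0.14, and 3 members (SMARCA2, EP400 and SRCAP) then reached an unadjusted p under 0.05, against 6.67% of all tested genes, with edgeR adjusted p of at least 0.57. The number 28 therefore describes these 6 libraries.

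The 6 members of the BAF complex, which evicts and slides nucleosomes at enhancers and promoters, had log2 fold changes from -0.05 to 0.17, with a median of 0.00. SMARCA4, also known as BRG1, is the main ATPase of this complex here and lies on chromosome 19 from 10960932 to 11079426 on the + strand. Its level was 41.8, 42.4 and 28.7 FPKM in HAP1 replicates 1 to 3 and 37.8, 41.2 and 29.4 FPKM in HELLS KO replicates 1 to 3. In both genotypes replicate 3 was the low library, the ranges overlapped almost fully, and the log2 fold change was -0.05 (95% interval -0.50 to 0.40).

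SMARCA2, or BRM, is the alternative ATPase that takes the place of SMARCA4 in a BAF complex. It stood at 8.46, 7.41 and 9.11 FPKM in HAP1 and at 6.67, 10.2 and 11.1 FPKM in HELLS KO. HELLS KO replicate 1 lay below every HAP1 library and the other two HELLS KO libraries above every one, giving a log2 fold change of 0.17 (-0.32 to 0.66). Among the shared subunits, SMARCB1, a core subunit known as a tumour suppressor in rhabdoid tumours, averaged 40.5 ± 7.10 FPKM in HAP1 against 40.1 ± 7.52 in HELLS KO. The scaffold subunits SMARCC1 and SMARCC2 changed by -0.02 and 0.01 on the log2 scale, and ARID1A, the large DNA-binding subunit that is often mutated in cancer, by 0.01.

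The ISWI group slides nucleosomes into regular spacing, and its 6 members had log2 fold changes from -0.09 to 0.10. SMARCA5, also called SNF2H, lies on chromosome 4 from 143513702 to 143557486 on the + strand and is the ATPase of most ISWI complexes. It measured 25.4, 25.4 and 27.1 FPKM in HAP1 and 24.6, 28.3 and 26.6 FPKM in HELLS KO. The log2 fold change was 0.04 (-0.21 to 0.28). These were among the tightest values of the list.

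SMARCA1, or SNF2L, is the second ISWI ATPase and lies on chromosome X from 129446501 to 129523500 on the - strand. Its level was 42.9, 40.7 and 43.2 FPKM in HAP1 and 35.8, 41.7 and 40.8 FPKM in HELLS KO. HELLS KO replicate 1 was the low library, while the others of both genotypes overlapped, and the log2 fold change was -0.09 (-0.34 to 0.16). In these cells the transcript of SMARCA1 stood above that of SMARCA5 per length in all 6 libraries.

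The promoter sequences of these 3 ATPases are shown because their genes carry the main ATPase pairs compared below and because HELLS is known for its role in the methylation of cytosines followed by guanine. Each is the 250 bases before the RefSeq start in GRCh38.p14, read 5′ to 3′ on the strand of the gene, with every CG in capitals: SMARCA4 from chr19:10960780-10961029 on the + strand, SMARCA5 from chr4:143513452-143513701 on the + strand and SMARCA1 from chrX:129523491-129523740 on the - strand.
SMARCA4: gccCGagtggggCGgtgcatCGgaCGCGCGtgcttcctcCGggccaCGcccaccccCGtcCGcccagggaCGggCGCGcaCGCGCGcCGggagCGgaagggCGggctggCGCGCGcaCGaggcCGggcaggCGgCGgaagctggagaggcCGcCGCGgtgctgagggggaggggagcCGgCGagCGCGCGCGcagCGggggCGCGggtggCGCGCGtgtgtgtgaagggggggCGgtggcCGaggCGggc
SMARCA5: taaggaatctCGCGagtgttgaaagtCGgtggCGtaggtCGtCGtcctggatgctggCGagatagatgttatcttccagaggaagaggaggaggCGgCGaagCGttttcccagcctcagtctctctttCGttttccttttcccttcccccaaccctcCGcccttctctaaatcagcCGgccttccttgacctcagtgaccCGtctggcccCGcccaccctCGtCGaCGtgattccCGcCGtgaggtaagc
SMARCA1: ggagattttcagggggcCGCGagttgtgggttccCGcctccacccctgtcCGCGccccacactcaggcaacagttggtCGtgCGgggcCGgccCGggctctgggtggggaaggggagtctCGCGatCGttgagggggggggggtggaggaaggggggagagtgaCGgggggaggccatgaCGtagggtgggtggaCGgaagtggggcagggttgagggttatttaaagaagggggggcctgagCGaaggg
The SMARCA4 window holds 44 CG, a number reached by 0.769% of the 35116 promoter windows of this length in RefSeq. The SMARCA5 window holds 20 (32.4%) and the SMARCA1 window 16 (41.0%). For SMARCA4 the start richest in CG is shown. The window of its other RefSeq start, chr19:10983874-10984123, holds 4 CG (70.7%). CG reads the same on both strands, so each was counted once. Of the members, 27 of 36 matched a RefSeq promoter entry, 7 of them with several starts, and the others were ATRX, DAXX, BAZ1A, BPTF, CHD5, CHD6, CHD7, SMARCC1 and SMARCC2. Taking the start richest in CG for each, 25 of the 27 had at least 11 CG, and the median of the members was 21. A count of 11 is the median of all windows, and 50.3% of them reach it. All windows were counted singly, so taking the richest start raises the members in this comparison. Counted singly as well, the 41 windows of the members had a median of 16 CG. DNA methylation was not measured in these libraries, so the windows describe the reference sequence alone.

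The partners of the ISWI ATPases were as steady. BAZ1A, or ACF1, which pairs with SMARCA5 in a nucleosome-spacing complex, measured 26.0, 26.5 and 28.6 FPKM in HAP1 and 28.5, 28.2 and 28.1 FPKM in HELLS KO (log2 fold change 0.07, -0.16 to 0.30). The HELLS KO libraries lay close together at the upper end of the HAP1 range and inside it. BAZ1B, the partner found at replication forks, changed by 0.03, BAZ2A, which silences ribosomal DNA, by -0.04, and BPTF, the largest subunit of the NURF complex and a reader of methylated histone, by 0.10.

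The CHD enzymes, named for the chromodomains with which several of them read methylated histones, had 9 members and log2 fold changes from 0.00 to 0.54. CHD4 and CHD3 are the ATPases of the NuRD complex, which joins remodelling to histone deacetylation. CHD4, on chromosome 12 from 6570082 to 6614524 on the - strand, was the highest member at 50.2, 46.5 and 45.2 FPKM in HAP1 and 42.9, 55.4 and 47.2 FPKM in HELLS KO. The HELLS KO libraries spread to both sides of the HAP1 libraries, and the log2 fold change was 0.04 (-0.25 to 0.33). Of the exon bases of CHD4, 46.9% overlap another annotated gene on the same strand, so part of its count is uncertain.

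CHD3 measured 45.7, 44.5 and 37.5 FPKM in HAP1 and 43.2, 49.9 and 40.0 FPKM in HELLS KO, with replicate 3 the low library in both genotypes. The third NuRD ATPase, CHD5, which is known mainly from neurons and testis, was close to absent. Its counts were 12, 13 and 31 in HAP1 and 16, 19 and 50 in HELLS KO, or 0.102 ± 0.0226 and 0.149 ± 0.0502 FPKM. Each HELLS KO library lay above the HAP1 library of the same number, but the ranges overlapped, and the log2 fold change of 0.54 had an interval from -0.38 to 1.46. This was the largest fold change of the list and rested on the fewest counts.

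Of the other CHD genes, CHD8, a regulator of transcription linked to autism, had 24.8 ± 2.79 FPKM in HAP1 and 24.8 ± 5.28 in HELLS KO. CHD7, mutated in CHARGE syndrome, had 14.6 ± 1.07 and 14.7 ± 2.58 FPKM. CHD1, which binds methylated histone at active genes, changed by 0.08 (-0.59 to 0.75), CHD2 by 0.02 and CHD6 by 0.03 (-0.66 to 0.73) on the log2 scale. CHD9 had the widest interval of this group, -0.85 to 1.00 around 0.07, and its libraries stood at 5.51, 4.53 and 10.04 FPKM in HAP1 and 4.06, 6.80 and 10.2 FPKM in HELLS KO. Replicate 3 was the high library of CHD9 in both genotypes.

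The INO80 class holds the large complexes that exchange variant histones. INO80, which also acts at stalled forks, measured 17.1, 17.0 and 21.2 FPKM in HAP1 and 15.5, 19.3 and 21.5 FPKM in HELLS KO (log2 fold change 0.03). SRCAP measured 20.6, 18.4 and 21.2 FPKM against 17.2, 25.6 and 23.4 FPKM, a log2 fold change of 0.14 (-0.24 to 0.52). For SRCAP 73.1% of exon bases overlap another annotated gene on the same strand, so its count is uncertain. EP400, the ATPase associated with the TIP60 acetyltransferase, measured 11.3, 9.93 and 11.3 FPKM against 6.99, 13.3 and 13.6 FPKM, so that HELLS KO replicate 1 lay below and the other two HELLS KO libraries above all HAP1 libraries.

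ATRX and DAXX together place a variant histone at telomeres and pericentric heterochromatin, the compartment in which HELLS also acts. ATRX measured 11.4, 10.97 and 16.7 FPKM in HAP1 and 12.6, 14.1 and 17.1 FPKM in HELLS KO, and DAXX 20.6, 21.5 and 19.5 FPKM against 23.1, 22.8 and 19.9 FPKM. Each was higher in HELLS KO within every same-numbered pair of libraries, but replicate 3 made the ranges of both genes overlap. Another gene on the same strand overlaps 14.3% of the exon bases of DAXX. The log2 fold changes were 0.17 (-0.29 to 0.63) for ATRX and 0.10 (-0.18 to 0.38) for DAXX. RAD54L2, a relative of ATRX that binds the androgen receptor, changed by 0.03.

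With the same-numbered libraries compared as pairs, 3 members, DAXX, ATRX and CHD5, had the same sign in all 3 pairs, against 31.1% of all tested genes. In the edgeR fit with the replicate number as a block 0 members were called, against 3.51% of all tested genes, and the smallest adjusted p among the members was 0.44.

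Of the 7 members that act mainly in replication and repair, HLTF, SMARCAL1 and ZRANB3 remodel stalled replication forks. HLTF had the lowest fold change of the list, with 25.5, 22.8 and 28.7 FPKM in HAP1 and 17.9, 24.8 and 27.7 FPKM in HELLS KO (log2 fold change -0.13, -0.55 to 0.30). Only HELLS KO replicate 1 lay below the HAP1 range. HLTF is also the member most overlapped by a gene on the opposite strand, over 29.8% of its exon bases, and it is 1 of 6 members overlapped over at least 10%. SMARCAL1 changed by -0.02 and ZRANB3 by -0.09 on the log2 scale.

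SHPRH, a ubiquitin ligase of the replication clamp related to HLTF, varied most among its own libraries. It measured 1.91, 1.73 and 4.13 FPKM in HAP1 and 1.04, 2.52 and 4.63 FPKM in HELLS KO, so that the highest library of HELLS KO was 4.45 times the lowest in CPM. Its log2 fold change of 0.07 therefore had an interval from -1.21 to 1.35, and a change of 2-fold in either direction was not detectable. ERCC6L2, a factor in the joining of broken DNA ends, behaved alike, with 4.48, 3.56 and 8.50 FPKM against 3.83, 6.01 and 9.19 FPKM and a log2 fold change of 0.20 (-0.75 to 1.15).

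ERCC6L, or PICH, which binds the DNA bridges between separating chromosomes, measured 25.02 ± 5.67 FPKM in HAP1 and 25.2 ± 5.18 in HELLS KO. SMARCAD1, which keeps heterochromatin silent through replication and is needed for the trimming of broken ends, had 19.4 ± 4.47 and 19.7 ± 4.33 FPKM. Of the 2 members that act in transcription, TTF2 releases RNA polymerase from its template and BTAF1 removes the TATA-binding protein from DNA, and each changed by 0.04 on the log2 scale. The interval of BTAF1 was wide, from -0.81 to 0.89, because its libraries ran from 9.94 to 25.5 FPKM.

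Ranked by level per length, the members covered a wide range but held their order between genotypes. In HAP1 the mean FPKM was highest for CHD4 (47.3 ± 2.59), BAZ1B (45.9 ± 1.82), CHD3 (42.6 ± 4.41), SMARCA1 (42.2 ± 1.36) and SMARCB1 (40.5 ± 7.10), and they were followed by SMARCC1, SMARCA4, ARID1A, BAZ1A and SMARCA5. The lower end was formed by SMARCA2 (8.33 ± 0.857), CHD9 (6.69 ± 2.94), ERCC6L2 (5.51 ± 2.63), ZRANB3 (5.04 ± 0.452), SHPRH (2.59 ± 1.34) and CHD5. CHD4 stood 18.3-fold above SHPRH and 462-fold above CHD5 in mean FPKM. The median member had 19.5 FPKM beside 7.37 for all tested genes, and 31 of 36 members lay above the latter value.

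Most neighbours in this order did not differ beyond their spread. Of 35 pairs of neighbouring genes, the ranges over the 3 HAP1 libraries overlapped in 31, and the gaps came after ARID1A, BAZ2A, ZRANB3 and SHPRH. The same 10 genes were the highest in HELLS KO, and no member moved by more than 3 ranks. Spearman's rho between the 2 orders was 0.997 across the 36 genes. Each gene has the same length and base composition in both orders, and these differ between genes.

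**Figure D2:**
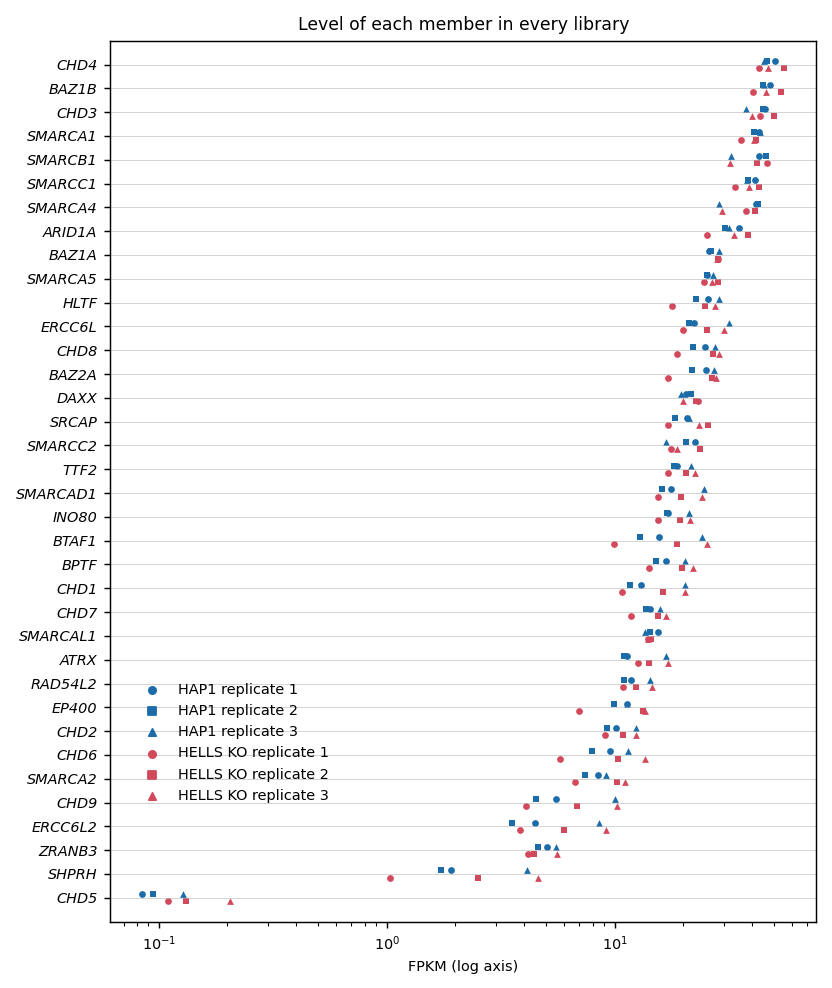
The FPKM level (horizontal log axis) of each of the 36 members in every library, ordered by the HAP1 mean, with a symbol for each replicate and a colour for each genotype. The libraries of both genotypes overlap in every row, from CHD4 at 47.3 to CHD5 at 0.102 mean FPKM in HAP1, and replicate 3 stands apart in rows such as SHPRH and SMARCA4.

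The balance between related members was also measured, as the log2 ratio of FPKM within each library, in 14 pairs of paralogs or partners. In 12 pairs the genotypes differed by less than the pooled SD, and with 3 libraries against 3 the two-sided exact permutation test cannot go below p = 0.1. SMARCA4 exceeded SMARCA2 by 2.16 ± 0.45 in HAP1 (SD, n = 3), or 4.47-fold, and by 1.97 ± 0.55 in HELLS KO, a difference of -0.19 (exact permutation p = 0.6). The largest difference was that of CHD4 over CHD5, -0.48 (exact permutation p = 0.3), which rests on the low counts of CHD5. Among the others the largest in size was -0.20, for ERCC6L over ERCC6L2.

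The ratio of SMARCA5 to SMARCA1 was the 1 ratio whose libraries did not overlap between genotypes. Its log2 values were -0.76, -0.68 and -0.67 in HAP1 and -0.54, -0.56 and -0.62 in HELLS KO. SMARCA5 thus stood per length at 0.614 of the level of SMARCA1 in HAP1 and at 0.672 in HELLS KO. This is a log2 difference of 0.13 beside a pooled SD of 0.04. The exact permutation p of 0.1 is the smallest this design can give, and 1 of 14 pairs reached it. Without any difference between genotypes a pair reaches this p at a rate of 0.1, so 1 of 14 is no excess. No pair could pass adjustment over 14 pairs, and the adjusted values cannot tell this ratio from the others.

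**Figure D3:**
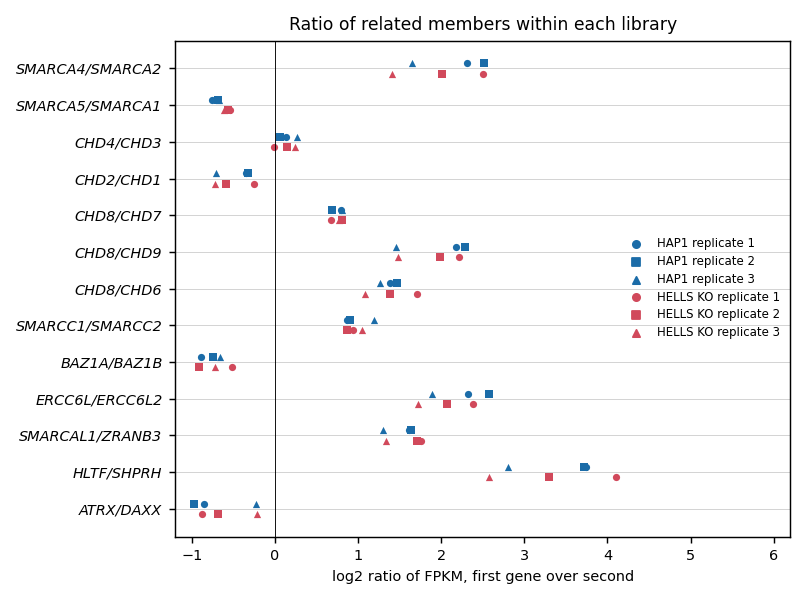
The log2 ratio of FPKM (horizontal axis) of related members within each library, for the 13 pairs other than CHD4 over CHD5, with a symbol for each replicate and a colour for each genotype. The genotypes overlap in every row but SMARCA5/SMARCA1, where HAP1 runs from -0.76 to -0.67 and HELLS KO from -0.62 to -0.54.

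For most members the libraries of 1 genotype differed more than the genotype means. Within HAP1 the highest library of a member was 1.27 times the lowest in CPM at the median, and within HELLS KO 1.44 times. Between the same-numbered libraries, the members moved as a group in opposite directions. In replicate 1 31 of 36 members were lower in HELLS KO, with a median log2 ratio of CPM of -0.24 and the lowest value, -0.88, for SHPRH. In replicate 2 33 of 36 were higher, with a median of 0.28 and the highest value, 0.78, for ERCC6L2. In replicate 3 the median was 0.02, and 27 were higher. With numbers 1 and 2 swapped the shifts were smaller. HELLS KO replicate 1 over HAP1 replicate 2 had a median of -0.11, with 30 members lower. HELLS KO replicate 2 over HAP1 replicate 1 had a median of 0.16, with 31 members higher.

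Shifts of this kind were also present between libraries of 1 genotype and in other long genes. HELLS KO replicate 2 exceeded HELLS KO replicate 1 in 34 of 36 members, by a median log2 ratio of 0.37, and HAP1 replicate 1 exceeded HAP1 replicate 2 in 30, by 0.12. The median length of the members was 9499 bases beside 4096 for all tested genes. Tested genes at least as long as 9499 bases had median ratios of -0.18, 0.23 and 0.02 in replicates 1, 2 and 3, and all tested genes had -0.00, 0.02 and -0.02. Genes shorter than 2821 bases went the other way in replicates 1 and 2, at 0.10 and -0.09. Replicate 2 also split by base composition. The third of tested genes with the least G and C had medians of 0.00, 0.17 and -0.04 in replicates 1, 2 and 3. The third with the most had -0.00, -0.12 and 0.00. Length and these libraries moved with the members, and the part of length, base composition and library in the differences of the members was not tested.

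**Figure D4:**
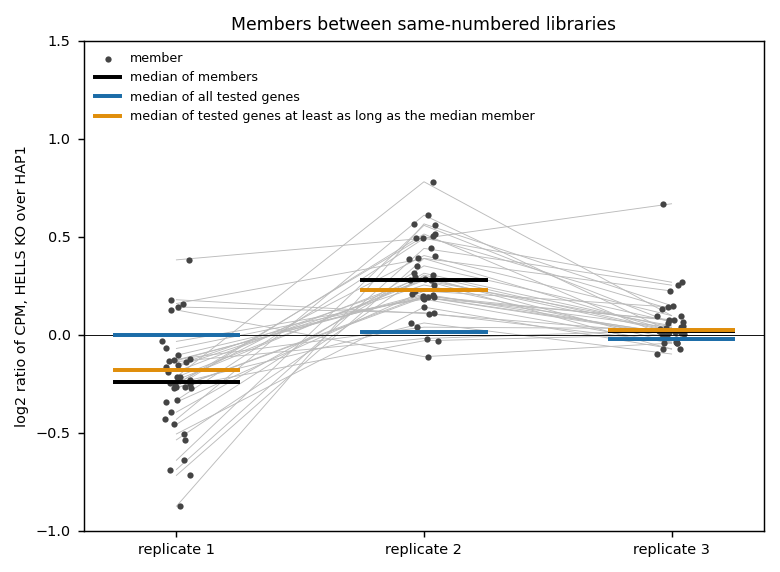
The log2 ratio of CPM, HELLS KO over HAP1 (vertical axis), of each of the 36 members between libraries of the same replicate number, with lines joining a member and bars for the median of the members, of all tested genes and of tested genes of at least 9499 bases. The median of the members is -0.24 in replicate 1, 0.28 in replicate 2 and 0.02 in replicate 3, and the long genes follow it at -0.18, 0.23 and 0.02.

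Replicate 3, which carries the batch label, stood apart from replicates 1 and 2 in many members. The FPKM of replicate 3 over the mean of the other two ran from 0.680 for SMARCA4 to 2.27 for SHPRH in HAP1 and from 0.720 for SMARCB1 to 2.60 for SHPRH in HELLS KO, and it was above 1 in 26 and 27 members. Across the 36 members this ratio was higher where the transcript held less G and C, with Spearman's rho of -0.62 in HAP1 and -0.49 in HELLS KO. The 12 members with the least G and C (up to 41.3%) had medians of 1.45 and 1.32, and the 12 with the most (from 51.3%) had 0.932 and 0.972. The ratio was also lower where a member held more counts per base of its length, with rho of -0.62 and -0.71, and which of these the ratio follows was not tested. These ratios and correlations are given for the members only, so they do not set the members apart from other genes. Within replicates 1 and 2 alone edgeR called 0 members, against 2.47% of all tested genes.

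**Figure D5:**
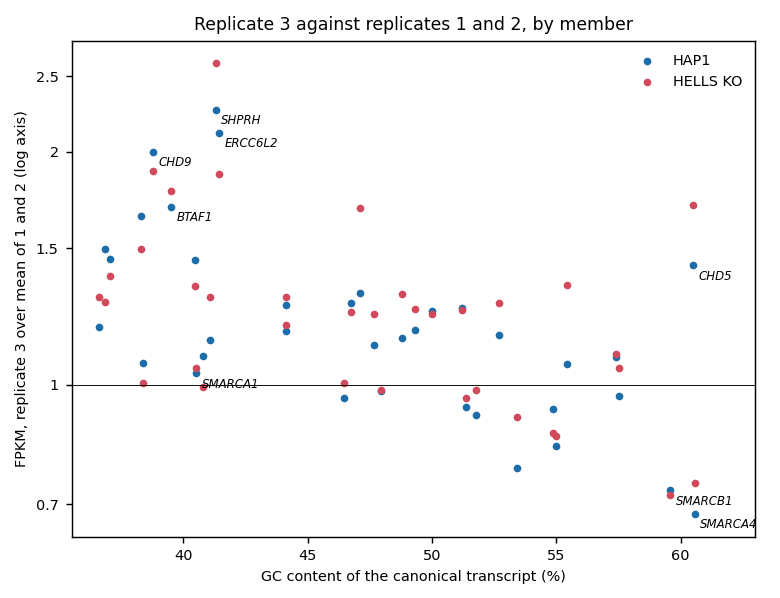
The FPKM of replicate 3 over the mean of replicates 1 and 2 (vertical log axis) against the GC content of the transcript in percent (horizontal axis), for each of the 36 members in HAP1 and in HELLS KO. Members with less G and C tend to lie above 1, and the values run from SMARCA4 at 0.680 in HAP1 to SHPRH at 2.60 in HELLS KO.

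Other genes of the same complexes were examined next. Of 75 further genes, comprising other subunits of the BAF, NuRD, ISWI and INO80 classes, 4 other SNF2-family ATPases and the HELLS partners CDCA7 and CDCA7L, 74 were tested (all but ACTL6B) and edgeR called 0 of them in either direction, against 2.22% of all tested genes. DESeq2 called 0 as well. The median log2 fold change was 0.05 in the BAF and PBAF subunits, 0.01 in the NuRD subunits, 0.10 in the ISWI subunits and 0.02 in the INO80, SRCAP and TIP60 subunits. The fold changes of single genes reached further than those of the members, to 0.59 for CHRAC1 and 0.58 for INO80B, a subunit of the INO80 complex. INO80B had few counts, 10, 8 and 30 in HAP1 and 17, 20 and 32 in HELLS KO, and an interval from -0.38 to 1.53. The repair ATPases RAD54L and RAD54B changed by 0.02 and -0.08, ERCC6, the Cockayne syndrome factor, by 0.26, and CHD1L, a remodeller that PARP activates, by 0.04. CDCA7, which recruits HELLS to chromatin, had 44.1 ± 2.31 FPKM in HAP1 and 43.8 ± 2.13 in HELLS KO, and CDCA7L changed by 0.04.

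Among these 74 genes, 1 reached an unadjusted p under 0.05 (CHRAC1, against 6.59% of all tested genes) and 2 had libraries without overlap (CHRAC1 and DMAP1, against 10.1%). CHRAC1, DMAP1 and INO80B were named after their values were seen. CHRAC1, a small histone-fold subunit of the CHRAC complex of SMARCA5 and BAZ1A, lies on chromosome 8 from 140511311 to 140517154 on the + strand. Its counts were 951, 901 and 1787 in HAP1 and 1575, 1502 and 2382 in HELLS KO, or 69.0 ± 4.83 and 104 ± 5.35 CPM. All 3 HELLS KO libraries lay above all HAP1 libraries, with a log2 fold change of 0.59 (SE 0.12, 95% interval 0.32 to 0.86), and the edgeR adjusted p of 0.053 missed the threshold. Over 16 alternative fits the fold change stayed between 0.55 and 0.67, while the adjusted p ran from 2.4e-04 with DESeq2 to 0.31 without HAP1 replicate 1 and was under 0.05 in 6. The fold lay under the 2-fold cut-off in each of them. DMAP1, a subunit shared by the EP400 and SRCAP complexes, changed by 0.10 (-0.13 to 0.34).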

How the data were processed

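RNA-seq was carried out by the authors on HAP1 and HELLS KO cells with a directional total RNA kit and paired reads. Per the submitters' processing notes they used STAR 2.7.3a, featureCounts 2.0.6 and DESeq2 1.44.0, on GRCh38, and kept non-duplicated reads of mapping quality 20 or more. Which annotation was counted, and whether strand was used, is not given in the sources used here, so reads of overlapping genes may be shared. The authors deposited raw gene counts and an FPKM table of 24956 genes, whose values came out within 0.1% when recomputed from the counts, so the FPKM values add no measurement.

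Gene identifiers were matched without version to GENCODE release 44. Counts were fitted with edgeR 4.0.16 in R 4.3.3 (filterByExpr, TMM, glmQLFit, glmQLFTest, Benjamini-Hochberg over 17925 genes), with standard errors taken from the F statistic. Levels between genes were compared as FPKM, and ratios of related genes with exact permutation tests. Steps were tested on simulated counts. Alternatives were DESeq2 1.42.0, upper-quartile and RLE scaling, all genes unfiltered, 10 or more counts required in each library, a replicate block, a batch term, replicates 1 and 2 only, each library left out, and limma 3.58.1 on log2(FPKM + 1) and log2(FPKM + 0.1), a scale that understates changes of low genes. A total of 3 counts corresponds to 0.123 to 0.220 CPM, for counting error only.

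The members and the lists of other genes and markers were chosen with earlier results of these data known. All members and HELLS were named, and by rule the other SNF2-family ATPases, the HELLS partners and any other listed gene called or at an adjusted p under 0.05, of which there were 0. CHRAC1, DMAP1 and INO80B fall outside this rule. Deviations of same-numbered libraries from their genotype means correlated at 0.47, 0.22 and 0.81 for replicates 1, 2 and 3. The numbers were treated as pairs in the block. However, HELLS KO replicate 1 correlated more with HAP1 replicate 2 (0.66), and HELLS KO replicate 2 more with HAP1 replicate 1 (0.37). The pairing of replicates 1 and 2 by number is therefore not settled. Windows of 250 bases before the start came from RefSeq (GRCh38.p14).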

Additional observations from a re-analysis of the deposited data

How the results depend on the processing

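Members were called in 0 cases under each of the 16 alternatives. For the scaling, filter and limma alternatives, and for most single libraries left out, the share of all genes called was not counted. The replicate block changed no call, with 23 members above 0 and a median log2 fold change of 0.02. The number of members whose genotypes did not overlap was 0 on CPM. It moved to 1 with upper-quartile scaling (2.78% of the members, 9.93% of all tested genes), to 5 with replicates 1 and 2 only (13.9% and 43.4%), and to between 0 and 4 with 1 library left out, the highest without HELLS KO replicate 1 (11.1% and 17.4%). Compared as a replicate block, 3 members had 1 sign in all pairs, although their ranges overlapped. An unadjusted p under 0.05 was reached by ATRX with the batch term (log2 fold change 0.19, adjusted p = 0.32 in edgeR), with replicates 1 and 2 only and without HAP1 replicate 3 (13.7%, 14.2% and 12.6% of all tested genes), and by SMARCA2, EP400 and SRCAP without HELLS KO replicate 1. The members with an interval within -1 to 1 numbered 31 to 35. Over all tested genes the block called 630 and the batch term 656 against 398, and without HELLS KO replicate 1 222 were called; the cause was not tested. HELLS stayed between -0.35 and -0.03. Low counts limit CHD5, and the spread between libraries limits SHPRH and ERCC6L2.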
